A study of Mus musculus with 6 samples.

Results

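Metallothioneins and zinc transport are described here by 10 genes: the metallothioneins Mt1, Mt2 and Mt3, the metal-sensing transcription factor Mtf1, the zinc exporters Slc30a1, Slc30a5 and Slc30a7, and the zinc importers Slc39a1, Slc39a6 and Slc39a10. All probes annotated with one of these symbols were taken, 15 of the 45281 probes of the table, and the 10 genes are among 19057 genes named in it. The genes were proposed with the difference between the groups already known, so that difference is described for them and not tested. The cells were Wehi-231, a B cell lymphoma line from the mouse strain (BALB/c x NZB)F1, grown in DMEM with fetal bovine serum. In 3 samples the cells carried the hairpin labelled shCT and in 3 the hairpin labelled shTFII-I, named for the transcription factor TFII-I that Gtf2i encodes. No added metal or other agent is named in the labels. Whether the hairpin cells were clones or pools, and what shCT targets, is not given in the sources used here. Total RNA of each sample was hybridised to 1 Illumina bead array, and the series asks how TFII-I brings CTCF to promoters.

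Metallothioneins are small proteins rich in cysteine that bind zinc, copper and cadmium, buffer free zinc and take up reactive oxygen. MTF1 is a zinc finger protein that binds metal response elements when cellular zinc rises, and in mouse it drives Mt1, Mt2 and the exporter gene Slc30a1 and restrains Slc39a10. Transporters of the SLC30 (ZnT) family move zinc out of the cytosol, across the plasma membrane or into organelles, and those of the SLC39 (ZIP) family move it into the cytosol. Zinc entry is known to shape signalling by the B cell receptor.

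The promoter windows of the metallothioneins and of Slc30a1 are shown because MTF1 acts on these genes through the metal response element. Each window holds 250 bases before and 50 after 1 start per gene in a promoter table made from RefSeq on GRCm38.p6, and all 4 lie on the plus strand. That start is the gene's first base in RefSeq for Mt2 and Mt3, but lies 206 bases inside the gene's outer bounds for Mt1 and 84 bases inside them for Slc30a1. They are Mt1 at chr8:94178839-94179138, Mt2 at chr8:94172368-94172667, Mt3 at chr8:94152357-94152656 and Slc30a1 at chr1:191906531-191906830. Capitals mark the element's core, TGCACNC or TGCGCNC, on either strand.
Mt1: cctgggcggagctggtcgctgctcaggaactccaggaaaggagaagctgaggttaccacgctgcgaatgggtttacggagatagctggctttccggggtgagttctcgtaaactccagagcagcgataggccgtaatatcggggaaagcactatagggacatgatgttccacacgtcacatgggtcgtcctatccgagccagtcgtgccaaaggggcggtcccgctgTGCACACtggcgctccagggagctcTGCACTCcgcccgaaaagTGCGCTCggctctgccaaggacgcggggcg
Mt2: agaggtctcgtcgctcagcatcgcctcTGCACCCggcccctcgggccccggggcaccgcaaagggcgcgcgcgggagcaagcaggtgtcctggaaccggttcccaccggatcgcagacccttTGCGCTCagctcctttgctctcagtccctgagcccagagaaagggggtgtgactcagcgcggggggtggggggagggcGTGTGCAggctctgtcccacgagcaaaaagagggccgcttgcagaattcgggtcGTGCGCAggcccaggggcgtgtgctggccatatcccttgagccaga
Mt3: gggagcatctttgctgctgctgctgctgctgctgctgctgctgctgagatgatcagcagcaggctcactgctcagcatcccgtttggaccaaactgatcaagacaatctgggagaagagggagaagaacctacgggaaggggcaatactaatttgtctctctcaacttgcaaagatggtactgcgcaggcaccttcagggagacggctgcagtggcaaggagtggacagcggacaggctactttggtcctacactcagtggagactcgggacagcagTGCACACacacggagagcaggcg
Slc30a1: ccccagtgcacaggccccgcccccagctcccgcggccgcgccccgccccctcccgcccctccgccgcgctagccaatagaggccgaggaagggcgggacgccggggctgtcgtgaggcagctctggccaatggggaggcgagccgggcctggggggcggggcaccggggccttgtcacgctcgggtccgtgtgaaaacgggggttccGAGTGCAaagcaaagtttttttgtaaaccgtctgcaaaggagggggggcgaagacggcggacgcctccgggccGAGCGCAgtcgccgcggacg

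The Mt1 window held 3 cores, all on the gene's strand, beginning at -23, 3 and 21, counted from the table's start as 1. The Mt2 window held 4, 2 on each strand, beginning at -223, -128, -50 and 5. Slc30a1 held 2 and Mt3 held 1. No 2 of the cores in these windows overlapped. Of 32851 windows in the table, 25.7% held at least 1 core, 7.11% at least 2, 1.97% at least 3 and 0.517% at least 4. The core is rich in G and C, and so were these windows, with 60.7% G and C for Mt1, 67.7% for Mt2, 56.0% for Mt3 and 73.0% for Slc30a1, against a median of 52.7% over all windows. In all, 9 of the 10 genes matched the table, without Slc39a6. Slc30a5 held 1 core, and the windows of Mtf1, Slc30a7, Slc39a1 and Slc39a10 held none of these letters.

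**Figure D1:**
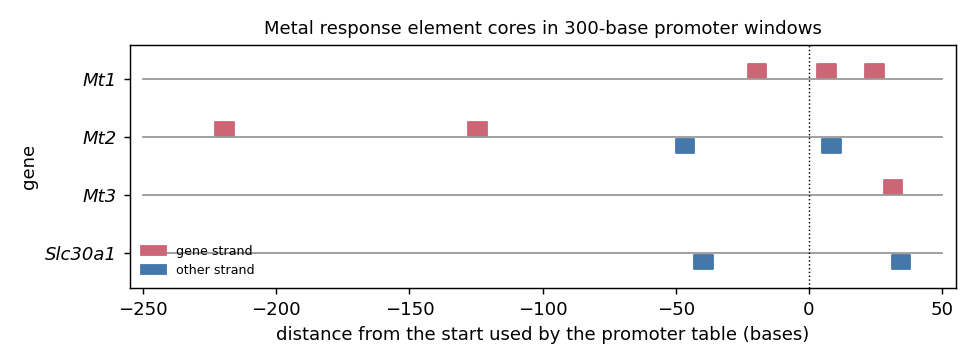
Positions of the metal response element core in the promoter windows of Mt1, Mt2, Mt3 and Slc30a1; the horizontal axis is the distance in bases from the start that the promoter table uses, and boxes above or below a line are on the gene's or the other strand. Mt2 has 4 boxes, Mt1 has 3, Slc30a1 has 2 and Mt3 has 1.

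The deposited values were log2 intensities that the authors had brought to 1 distribution across arrays. A level of 6.61 was estimated as the upper edge of background, and a probe passed the filter where at least 3 of 6 arrays exceeded it, which left 7199 genes. With limma fitted to those genes, 0 of 7199 passed an adjusted p of 0.05 and 479 had an unadjusted p under 0.05. Limma called 6 genes when its prior variance was let vary with intensity and made robust, and 5 after normexp background correction, and 0 of the genes called were metallothionein or zinc transport genes. Arrays of one group correlated with Pearson r from 0.939 to 0.969 over genes and arrays of different groups from 0.939 to 0.978, so the groups did not stand apart as a whole. The only named Gtf2i probe lay below background on all 6 arrays, with values of 6.47, 6.56 and 6.41 in shCT and 6.40, 6.53 and 6.44 in shTFII-I, and it cannot check the knockdown. The labels do not say whether replicates were separate cultures, so errors may be technical.

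Mt1 was the only one of the 10 genes whose groups were clearly separated, about 2-fold higher in shTFII-I. On the log2 scale its probe, ILMN_2596522, read 11.30, 10.93 and 10.96 with shCT, against 11.94, 12.18 and 12.07 with shTFII-I. Every shTFII-I array lay above every shCT array, with a gap of 0.64 between the nearest of them. The means were 11.06 ± 0.21 (SD, n = 3) and 12.06 ± 0.12 (SD, n = 3). The difference was 1.003 ± 0.15 (log2, SE), or 2.004-fold, with a 95% interval of 1.57 to 2.56-fold in the limma fit of all genes. Of 7199 genes 5 had a higher difference and 11 had one at least as large in the other direction.

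The interval for Mt1 rests on how its error was estimated. Its SD within groups was 0.169, while the median over the 200 probes nearest to it in brightness was 0.363. With the intensity-dependent robust prior, which draws each error toward that of probes of like brightness, the SE was 0.31 and the 95% interval of the log2 difference ran from 0.37 to 1.64. The Mt1 signal lay far above background, and normexp background correction hardly moved the difference, to 1.02. Only 1 probe is named for Mt1, so no second probe bears on it. In RNA of whole cultures, more cells with Mt1 RNA and more Mt1 RNA per cell cannot be told apart.

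Mt2, whose gene lies next to Mt1 on chromosome 8 and whose protein has the same role, was barely above background. Its values were 6.61, 6.68 and 6.57 in shCT and 6.79, 6.60 and 6.69 in shTFII-I arrays. The groups overlapped, with 1 of 3 shCT and 2 of 3 shTFII-I arrays above the background level. The log2 difference was 0.07 ± 0.06 (SE), with a 95% interval from -0.08 to 0.22, and its SE was 0.12 in the fit of tested genes. With normexp background correction the difference was 0.18 ± 0.28. Whether Mt2 RNA was low or its probe weak was not tested, and the gap between the Mt1 and Mt2 differences was not tested.

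Mt3, the metallothionein best known from brain, was not measurable. Its probe read 6.35, 6.50 and 6.42 in shCT and 6.39, 6.55 and 6.52 in shTFII-I arrays, all below background. Mt4, the remaining gene of the cluster and known from stratified epithelia, was likewise below background on all 6 arrays, at 6.37, 6.38 and 6.46 in shCT and 6.44, 6.52 and 6.57 in shTFII-I. Mt1 was thus the one metallothionein with a probe above background on all arrays.

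**Figure D2:**
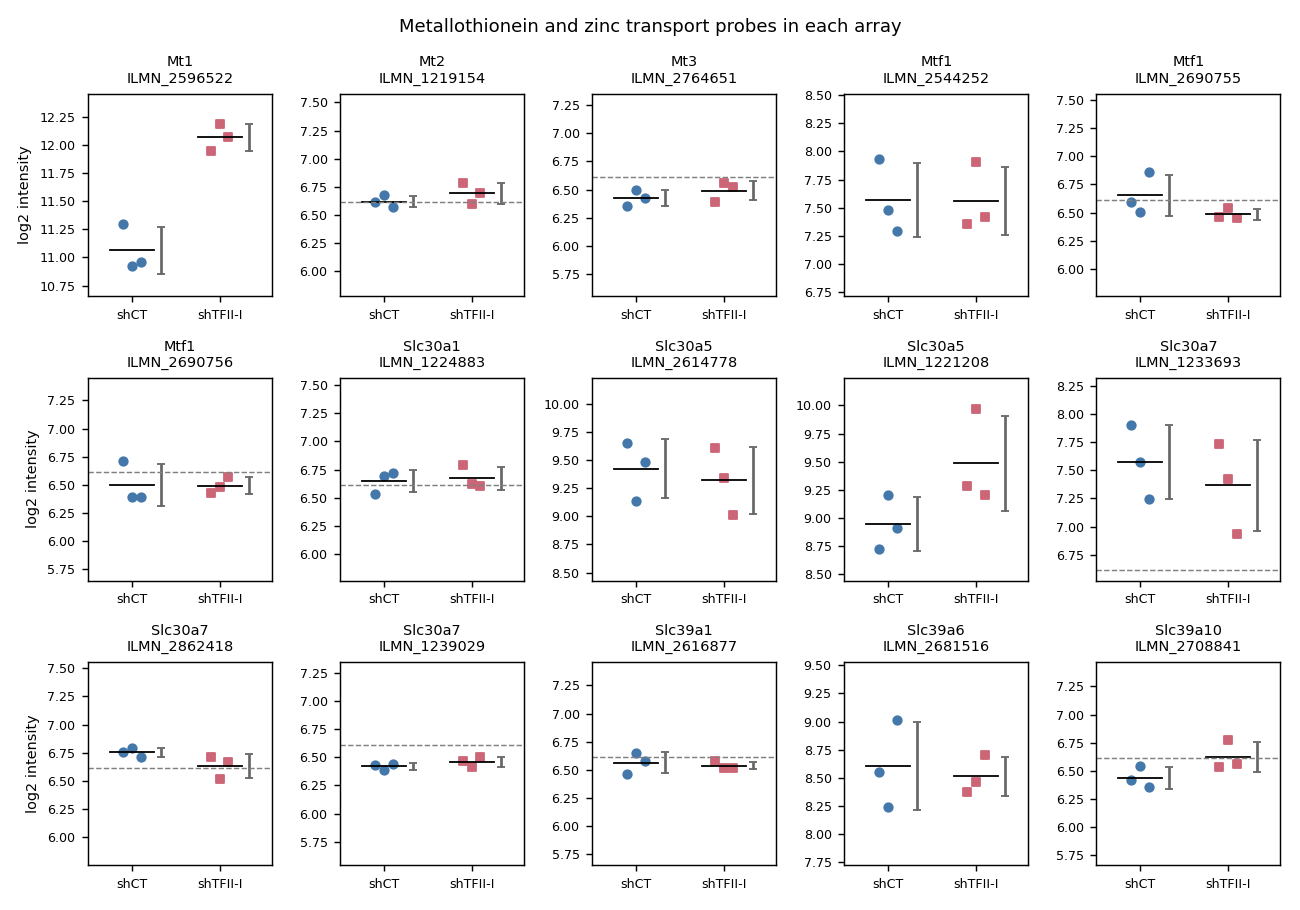
Log2 intensity of each of the 15 probes in the 3 shCT arrays (circles) and the 3 shTFII-I arrays (squares), with group means (black lines), SD (grey bars) and the background level of 6.61 (dashed, where it falls in the panel). All panels span the same height on the log2 scale, and the groups are clearly separated for Mt1, at 11.06 and 12.06.

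Mtf1, the factor that acts on the metal response element, showed almost the same mean in both groups on its brightest probe. That probe, ILMN_2544252, read 7.93, 7.48 and 7.29 in shCT and 7.36, 7.90 and 7.42 in shTFII-I arrays. Each group held 1 high array and 2 lower ones, and the difference of -0.01 ± 0.21 (log2, SE) was far within that spread. Its 95% interval, -0.51 to 0.49, leaves room for a change of about that size in either direction. The other Mtf1 probes are annotated to the RefSeq mRNA, which the brightest is not, and did not pass the filter. ILMN_2690755 differed by -0.17 ± 0.10 and ILMN_2690756 by -0.00 ± 0.10, and each was above background in 1 shCT array only.

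Slc30a1 encodes ZnT1, the exporter of the plasma membrane, and like Mt1 is a known MTF1 target. Its probe stood at the edge of background, with 6.54, 6.69 and 6.72 in shCT and 6.79, 6.62 and 6.61 in shTFII-I arrays. The groups overlapped, with 2 of 3 arrays above the background level in each, and the difference was 0.02 ± 0.08 (log2, SE). Its SE was 0.13 in the fit of tested genes.

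Slc30a5 encodes ZnT5, which loads zinc into the early secretory pathway, and both of its probes were well above background on all arrays. They gave different answers. The brighter on average, ILMN_2614778, read 9.65, 9.14 and 9.48 in shCT and 9.61, 9.34 and 9.01 in shTFII-I arrays, a difference of -0.11 ± 0.19 (log2, SE). ILMN_1221208 read 8.72, 9.21 and 8.91 in shCT and 9.29, 9.97 and 9.21 in shTFII-I arrays, a difference of 0.54 ± 0.23 with a 95% interval from -0.01 to 1.08. On that probe the lowest shTFII-I and the highest shCT array coincided at 9.21, and the second shTFII-I array was the highest. The first shCT array was the highest of its group on one probe and the lowest on the other. The mean of the probes differed by 0.22 ± 0.15, so the direction for Slc30a5 depends on the probe.

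Slc30a7 encodes ZnT7, which acts beside ZnT5 in the Golgi. Its brightest probe, ILMN_1233693, read 7.91, 7.57 and 7.24 in shCT and 7.73, 7.42 and 6.94 in shTFII-I arrays. The groups overlapped over most of their range, with a difference of -0.21 ± 0.24 (log2, SE). A dimmer probe, ILMN_2862418, differed by -0.12 ± 0.06, and ILMN_1239029 was below background on all 6 arrays.

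Among the importers Slc39a6 alone passed the filter. It encodes ZIP6, a plasma membrane importer that can pair with ZIP10, and its values were 8.56, 8.24 and 9.02 in shCT and 8.38, 8.46 and 8.71 in shTFII-I arrays. The shTFII-I values lay inside the range of the shCT values, and the difference was -0.09 ± 0.20 (log2, SE). Slc39a10 encodes ZIP10, an importer known to sustain B cell survival. It was above background in none of the shCT arrays, at 6.42, 6.54 and 6.35, and in 1 of the shTFII-I arrays, at 6.53, 6.78 and 6.56. The groups overlapped narrowly, and the mean was at least 1.01-fold higher in shTFII-I, a lower bound taken against the background level. That bound rested on the second shTFII-I array, since the others lay below this level, and the probe's 95% interval of -0.02 to 0.39 (log2) included 0. Slc39a1, which encodes the widely expressed importer ZIP1, exceeded background in 1 shCT array and differed by -0.03 ± 0.06.

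Across the 10 genes, 9 of 15 probes passed the filter, which gave 7 genes for the fit, while Mt3, Slc39a1 and Slc39a10 had no probe past it. Of the 15 probes 7 had a higher and 8 a lower mean in shTFII-I. The groups did not overlap for 1 probe, that of Mt1, against 10.3% of all 45281 probes. Of the 7 genes fitted, 0 passed the adjusted threshold (0% of all genes tested did) and 1, Mt1, had an unadjusted p under 0.05 (6.65% of all genes tested did). The groups did not overlap in 1, again Mt1, against 11.9% of all genes tested in either direction and 5.49% with shTFII-I higher. Since the genes were proposed from this same contrast, nothing is read from these counts. The 14 probes other than that of Mt1 differed by -0.21 to 0.54. Among the 6 probes above background on all arrays, those of Mt1, Mtf1, Slc30a5, Slc30a7 and Slc39a6, the Mt1 probe had the smallest spread within groups, an SD of 0.169 against 0.280 to 0.368.

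**Figure D3:**
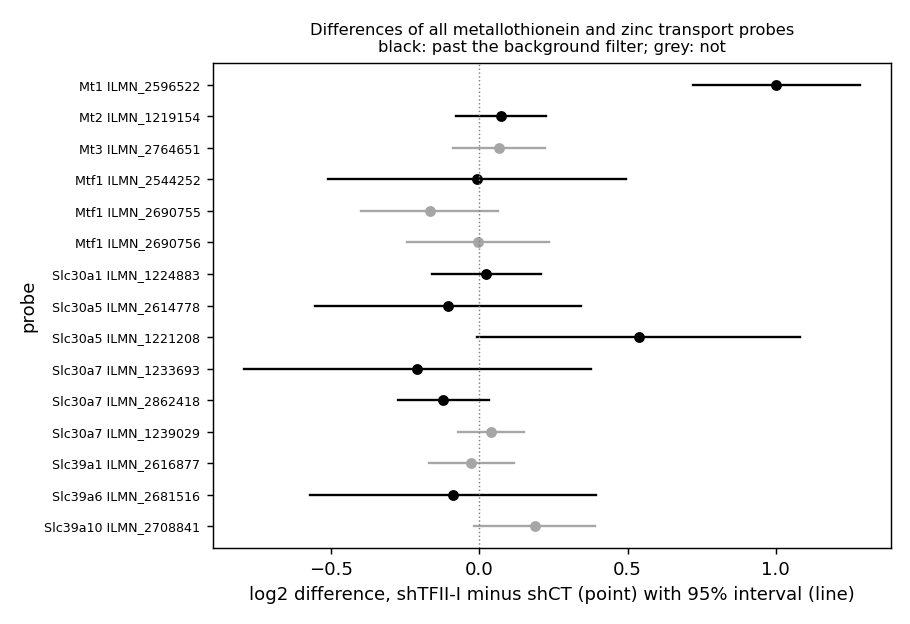
Log2 difference, shTFII-I minus shCT, of each of the 15 probes with its 95% interval from limma fitted to all probes of the table, in black for probes past the background filter and in grey for the others. The interval of Mt1 runs from 0.72 to 1.28 here and from 0.65 to 1.36 in the fit of tested genes. The intervals of the other 14 probes include 0. Since the genes were proposed from this same contrast, the intervals are no test of them.

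The remaining zinc transporters gave no common direction. Of 8 further exporter genes 2 were tested. Slc30a6, whose product partners ZnT5, read 7.51, 7.10 and 6.74 in shCT and 7.06, 6.64 and 6.69 in shTFII-I arrays, a difference of -0.32 ± 0.22 (log2, SE) with overlapping groups. Slc30a2, an exporter into vesicles, differed by 0.09 ± 0.12. Of 11 further importer genes 5 were tested, 3 higher and 2 lower in the mean. Slc39a4, best known as the intestinal importer, read 6.99, 6.92 and 7.06 in shCT and 6.68, 6.61 and 6.96 in shTFII-I arrays, a difference of -0.24 ± 0.14. Slc39a7, which releases zinc from the endoplasmic reticulum, differed by 0.03 ± 0.26 and its dimmer probes by -0.14 and 0.04. Slc39a8, Slc39a11 and Slc39a13 differed by -0.03 ± 0.12, 0.09 ± 0.20 and 0.07 ± 0.15. Over all 11 zinc transporter genes tested, the 4 of the opening list included, 5 were higher and 6 lower. Of them 0 passed the adjusted threshold (0% of all genes tested did). The groups were apart in 0, against 11.9% of all genes tested, and with 11 genes nothing is read from these counts. Their median size of difference was 0.09, against 0.13 over all genes. Brightness was not matched in that comparison, and Slc30a1, Slc30a2, Slc39a8 and Slc39a13 lay near background, which limits what could be seen.

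Other known MTF1 targets were mostly below background. Of 7 genes 2 were tested, both lower in the mean. Csrp1, a LIM domain protein, read 8.29, 8.22 and 8.59 in shCT and 7.84, 8.13 and 8.19 in shTFII-I arrays. All shTFII-I arrays lay below all shCT arrays, and the difference was -0.31 ± 0.16 (log2, SE). Selenow, a selenoprotein, differed by -0.11 ± 0.29, with the third shTFII-I array lowest at 7.03, and by 0.23 without that array. Neither gene passed the limma test across all genes. Gclc, Ndrg1, Pgf, Slc40a1 and Hamp did not pass the filter.

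Genes of copper handling went both ways, 4 higher and 5 lower of 9 tested, with a median difference of -0.01 against 0.0003 over all genes. Slc31a1, the copper importer, differed by 0.35 ± 0.24 (log2, SE), Ccs, the copper chaperone of superoxide dismutase, by -0.31 ± 0.21, Cutc by -0.28 ± 0.18 and Sco1, which serves cytochrome oxidase, by -0.17 ± 0.25. A second Cutc probe differed by -0.33 with groups apart. Of 8 genes known to respond to heavy metals 2 were tested. Hmox1, heme oxygenase, differed by 0.16 ± 0.17, and Gclm, a subunit of the enzyme that makes the glutathione precursor, by -0.21 ± 0.23. Both values rested on the third shTFII-I array, without which Hmox1 differed by 0.0057 and Gclm by 0.04. The heat shock genes Hspa1a and Hspa1b did not pass the filter.

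Metallothionein genes also respond to glucocorticoids, and 5 of 8 such targets were tested, 2 higher and 3 lower, with a median difference of -0.26. Leaving out 1 array put that median between -0.40 and -0.13, and it was -0.07 over all 8 genes without the filter. Errfi1, a feedback inhibitor of EGF receptor signalling, read 7.95, 7.78 and 7.41 in shCT and 7.24, 7.30 and 7.29 in shTFII-I arrays. Its groups were apart, and the difference was -0.44 ± 0.16 (log2, SE). Fkbp5, a chaperone of the glucocorticoid receptor, differed by -0.26 ± 0.18, Per1 by -0.29 ± 0.22 and Tsc22d3 by 0.29 ± 0.24, with -0.20 on a second Tsc22d3 probe and 0.06 on a second Per1 probe. None of the genes of these lists passed limma's test over all genes, which 0 of the 7199 genes tested did.

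**Figure D4:**
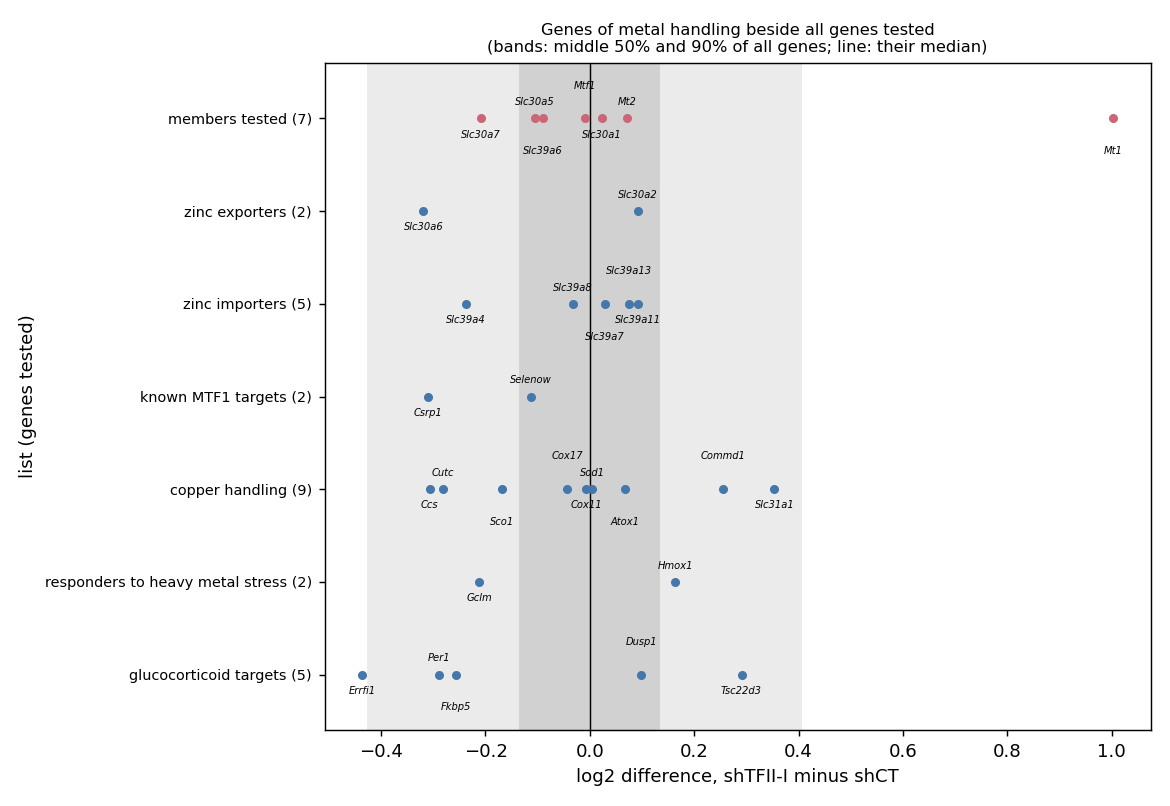
Log2 difference, shTFII-I minus shCT, of each gene tested among the 7 members that passed the filter and in 6 lists of metal handling and related genes, with bands for the middle 50% and 90% of all 7199 genes. Mt1 lies at 1.003, outside the 90% band of -0.43 to 0.41, and Errfi1 at -0.44 lies just outside its lower edge.

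The genes around the metallothionein cluster on chromosome 8 showed no difference like that of Mt1. Of the 6 genes in RefSeq order on each side of the run from Mt4 to Mt1, 5 had a probe and 4 were tested. On the Mt4 side Nudt21, a subunit of a cleavage factor for mRNA 3' ends, read 9.99, 10.28 and 10.04 in shCT and 10.42, 10.27 and 9.74 in shTFII-I arrays, a difference of 0.04. Ogfod1, a hydroxylase of a ribosomal protein, differed by -0.08. On the Mt1 side the nuclear pore gene Nup93 differed by -0.02 and Slc12a3, a sodium chloride cotransporter, by -0.06. Only that one of the 5 Slc12a3 probes passed the filter, and a dim one, ILMN_2756550, differed by 0.15 with groups apart. On the tested probes the groups overlapped in all 4 genes, where they did not overlap in 11.9% of all genes tested, and Bbs2 did not pass the filter. The Nup93 values ran from 8.95 to 10.33 within the shTFII-I group, so a difference of that gene would be hard to see.

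Genes were also ranked by how close their values, centred on the mean of 6 arrays, came to those of Mt1. The 5 nearest, by root mean square difference over 6 arrays, were Lmcd1 at 0.12, Ankrd49 at 0.12, Chfr at 0.14, Arhgap8 at 0.14 and Mrpl22 at 0.15, where the median over all genes was 0.56. All 5 were higher in every shTFII-I array than in any shCT array, which follows from the separation of Mt1 itself. Lmcd1, a LIM domain protein, read 8.11, 7.89 and 7.85 in shCT and 8.94, 8.90 and 8.75 in shTFII-I arrays, and its other probes differed by 1.16 and 0.62 in the same direction. Ankrd49 read 8.71, 8.44 and 8.45 in shCT and 9.62, 9.48 and 9.43 in shTFII-I arrays. Like Mt1, all 5 genes had their highest shCT value in the first array, which a ranking by closeness to Mt1 favours. For Chfr, a ubiquitin ligase of the mitotic checkpoint, the chosen probe differed by 0.83 and the other probes past the filter by 0.12 and 0.06. For Arhgap8 the values were 0.90 and 0.09. Mrpl22, of the mitochondrial ribosome, differed by 0.84 on its only probe. By the same measure Mt2 was at 0.50, Mtf1 at 0.53 and Slc30a1 at 0.53.

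**Figure D5:**
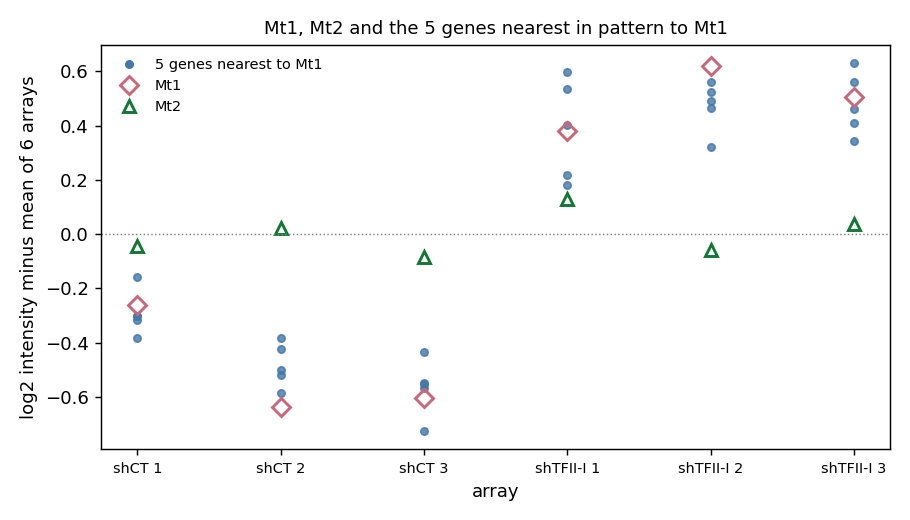
Log2 intensity minus the mean of 6 arrays, per array, for Mt1 (diamonds), Mt2 (triangles) and the 5 genes nearest to Mt1 (circles: Lmcd1, Ankrd49, Chfr, Arhgap8 and Mrpl22). Mt1 runs from -0.64 to 0.62, with all shCT arrays below 0 and all shTFII-I arrays above it, while Mt2 stays between -0.08 and 0.13.

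Markers of the labelled cell type and of others were set beside the Mt1 result. Of 8 B cell markers 5 had a probe, and Cd79b, Cd74 and Blnk were above background on all arrays, while Pax5 and Ms4a1 were near it. The mean log2 intensity over the 5 ran from 7.99 to 8.48 in shCT and from 8.54 to 8.68 in shTFII-I arrays, and its part in the Mt1 difference was not tested. The markers did not move as a set. On the brightest probe of each, Cd74 differed by 0.72 and Cd79b by 0.74 (log2), while Blnk differed by 0.08, Pax5 by 0.06 and Ms4a1 by -0.06. Of these probes that of Cd74 had its groups apart, as 10.3% of all 45281 probes did, and the others overlapped. A second Cd74 probe of like brightness (mean 9.74 against 10.04) differed by 0.14 with overlapping groups, and a dim one by 0.16 with groups apart. The second Cd79b probe differed by 0.83 with groups apart, and the second Blnk probe by -0.05 with overlapping groups. The third shCT array read 9.54 on the brightest Cd79b probe and 10.22 on the second. Of the markers of other cells with a probe, 5 of T cells, 5 myeloid, 5 of fibroblasts and 3 erythroid, 0 were above background on all arrays. Their mean log2 intensities in shCT and shTFII-I arrays were 6.49 to 6.51 and 6.42 to 6.46 for T cells, 6.50 to 6.51 and 6.54 to 6.56 for myeloid cells, 6.45 to 6.47 and 6.48 to 6.50 for fibroblasts, and 6.48 to 6.53 and 6.43 to 6.55 for erythroid cells. Cd3d, Cd3g, Cd4, Cd8a, Cd14, Itgam, Col1a1, Col1a2, Col3a1, Pdgfrb, Alas2 and Hba-a1 exceeded the background level on none of the 6 arrays. Tyrobp, Csf1r and Klf1 passed the filter, at levels as near background as Pax5 and Ms4a1. Tyrobp exceeded the background level on 1 shCT and 3 shTFII-I arrays and differed by 0.12 (log2) with overlapping groups. Csf1r differed by 0.02 and Klf1 by -0.01. Cd3e, Lyz2 and Dcn exceeded that level on some arrays but did not pass the filter.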

How the data were processed

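The value table deposited by the authors holds log2 intensities of 45281 probes on 6 arrays. From the values, they had been quantile normalized, since sorted columns differ by at most 0.0012. The authors' tool was limma, per the submitters' processing notes, which name no version. How background was corrected is not given in the sources used here. Bead signals were left out, because the 12 columns of per-sample values carry headings that match no sample.

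The mode of all values, 6.45, was taken as the centre of background and mirrored, which put the level that 1% of background exceeds at 6.61. A probe passed where at least 3 arrays exceeded it (12094 probes). Probes were named through the platform annotation, updated by Entrez ID to the RefSeq table of GRCm38.p6 (34807 of 34885 probes with 1 symbol matched, 18 had several and 10378 none). The brightest probe of each gene was tested, 7199 genes in all, with limma 3.58.1 in R 4.3.3 and Benjamini-Hochberg adjustment. Errors of single member probes are those of a limma fit over the 45281 probes, the error of Mt1 and of the other genes from the fit of 7199. Dim probes had smaller errors in the fit of all probes, such as 0.06 against 0.12 for Mt2, so the 2 kinds of error are not alike. The model was also run on simulated independent normal values with known changes added. Those values held no differences in array quality and no shared culture, so the run does not show how the model copes with either.

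With 3 arrays a group, the number of arrays limits precision, and 95% intervals had a median half-width of 0.41 (log2). The members, lists and markers were chosen with earlier results of these data known. Named genes were all members and cluster neighbours, all tested genes of the transporter and MTF1 target lists, up to 4 of smallest p from each other list, Gtf2i, and the 5 genes nearest to Mt1 in pattern. Alternatives covered background correction, prior, array weights, filter, probe choice, threshold, replicate block and each array left out. Same-numbered arrays deviated from their group means with correlations of -0.01, 0.003 and 0.10 over genes, which did not show pairing.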

Additional observations from a re-analysis of the deposited data

How the results depend on the processing

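The count of 0 genes past the adjusted threshold became 5 with normexp background correction and 6 with the intensity-dependent robust prior, and stayed at 0 under the other settings, with 1 array left out included. The count of 479 genes at an unadjusted p under 0.05 was 1011 without a filter, where 19057 genes were tested. Leaving out 1 array gave 351 to 539. Mt1 was higher in shTFII-I under every setting, with a log2 difference from 0.94 to 1.12 with 1 array left out and 1.02 with normexp or array weights. With groups apart on its only probe, leaving out 1 array could not change that direction. Prior, block, filter and probe choice could change only its error, so nothing is read from the unchanged direction. Under the replicate block 0 genes passed, 508 had an unadjusted p under 0.05, and the Mt1 difference was 1.003 ± 0.17. Of the other 46 differences and list medians, 35 moved by less than the spread within groups under every setting. Among members the exceptions were Mt2, at 0.18 with normexp, and Slc30a5, at 0.22 with the mean of its probes. With 1 array left out the small differences of Mtf1 (-0.18 to 0.17), Slc30a1 (-0.04 to 0.06), Slc30a5 (-0.25 to 0.05), Slc30a7 (-0.39 to 0.01) and Slc39a6 (-0.27 to 0.12) changed sign, and with array weights those of Slc30a5 (0.07) and Slc39a6 (0.02) did. With 1 array left out Slc39a7 (-0.17 to 0.28), Slc39a8 (-0.09 to 0.01), Slc39a11 (-0.04 to 0.26), Slc39a13 (-0.04 to 0.17), Selenow (-0.34 to 0.23), Sco1 (-0.35 to 0.04), Gclm (-0.35 to 0.04), the 4 cluster neighbours and the copper handling median (-0.07 to 0.01) changed sign too. The median of the glucocorticoid targets was -0.48 with normexp, -0.08 with probes above background on all arrays and -0.12 with the mean of probes. Dim probes, with Mt2, Mt3, Slc30a1, Slc39a1 and Slc39a10 among them, limit what could be seen.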
